A study of Mus musculus with 2 samples.

Results

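Ctla2a and Ctla2b are cytotoxic T lymphocyte-associated genes that encode small inhibitors of cysteine proteases, and they were examined together with 8 cathepsins, the lysosomal proteases, in the mouse uterus before implantation. The 10 genes were taken by symbol from a deposited table of 14678 genes. They were selected on measured values, their copy numbers in Dox+ and Dox-, so these values are given as a description and no test between conditions was made. All mice carried VEGFtetO/tetO, a VEGF gene with tet operators in its promoter, and the beta-AKtg/wt transgene, in which the β-actin promoter drives the tetR-Krab repressor in all tissues. Dox+ females ate doxycycline chow, which keeps the repressor off the VEGF promoter (VEGF-normal), and Dox- littermates were taken off doxycycline around weaning (VEGF-repression). The label of the Dox+ mice adds "wild type", although they carried the same alleles, and all were young adult females mated to VEGFtetO/tetO males. Uteri were collected at gestation day 2.5, RNA of 3 uteri was pooled per condition, and 1 digital gene expression library per condition was sequenced, which counts short sequence tags per gene (copies). With 1 library each, a difference has no replicate check in these data. The paper lists Ctla2a among the down-regulated genes that it checked by quantitative PCR in Dox+ and Dox- uteri of the same day. Whether those were the pooled uteri is not stated, and that check was not re-examined here. Repression of VEGF in the uterus, repression elsewhere in the body and the doxycycline itself cannot be told apart.

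Cathepsins are made as inactive proenzymes whose propeptide folds over the active site and is removed in the acid lumen of the lysosome. Most are cysteine proteases, while cathepsin D is an aspartic protease. CTLA-2 proteins resemble the propeptide of cathepsin L without the protease that follows it, and CTLA-2α inhibits cathepsin L. In the rodent uterus, cathepsins and their inhibitors are known from the remodeling of the endometrium around implantation. Ctla2 transcripts were first described in activated T lymphocytes and mast cells.

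The libraries held 5985925 clean tags for Dox+ and 5844314 for Dox-, of which 74.13% and 72.18% were assigned to the genes of the table. Vegfa, the repressed gene, had 247 copies in Dox+ and 125 in Dox-, 1.93-fold lower in Dox- (95% interval 1.55 to 2.41). Ratios are of copies per clean tag. Each 95% interval is the exact Clopper-Pearson one for the part of a gene's tags found in Dox-, turned into a fold, and it holds counting error alone. In all, 6547 genes reached 200 copies over both libraries, of which 15.2% were at least 1.5-fold higher in Dox-, 14.7% at least 1.5-fold lower and 29.9% either. Of the 10 genes, 9 had 200 combined copies or more. Among these 9, 3 were at least 1.5-fold higher in Dox- (Ctsh, Ctsk and Ctss) and 2 at least 1.5-fold lower (Ctla2a and Ctsd), and nothing is read from these counts, since the same contrast chose the genes. Their median on the log2 scale was 0.07, and that of all 6547 genes was 0.03. In these bulk samples, fewer cells of a type and less RNA per cell cannot be told apart.

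**Figure D1:**
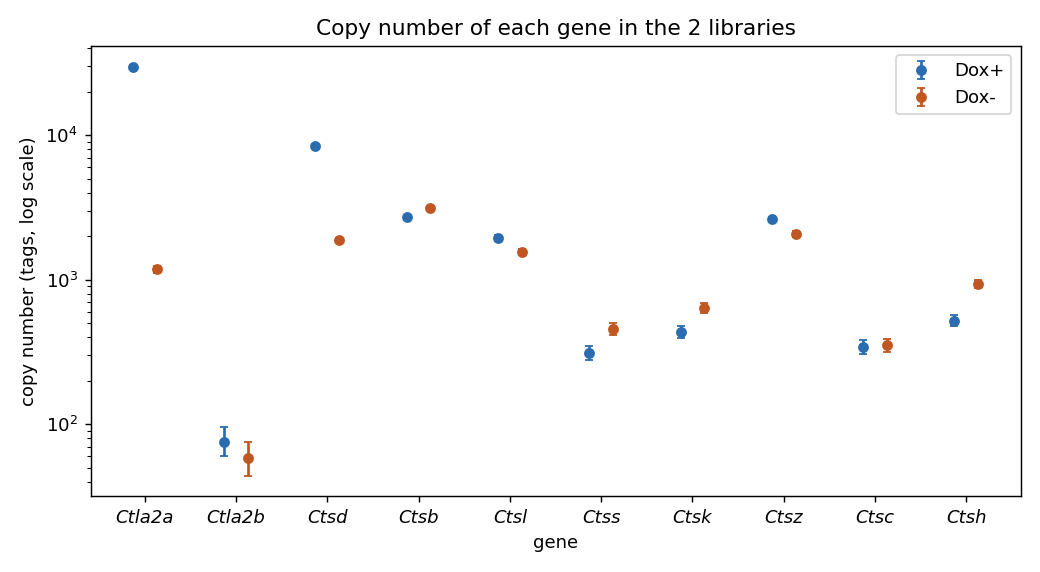
Copy number of each of the 10 genes (log axis) in the Dox+ (blue) and Dox- (orange) library, with exact 95% Poisson intervals that cover counting error only. Ctla2a goes from 29646 copies in Dox+ to 1184 in Dox-, Ctsd from 8497 to 1872, and the other genes range from 76 to 2719 copies in Dox+ and from 58 to 3145 in Dox-.

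Ctla2a had the highest level of the 10 genes in Dox+ and the largest difference between the libraries. Its copy number was 29646 in Dox+ and 1184 in Dox-, 24.4-fold lower in Dox- (95% interval 23.1 to 25.9). Its share of the counted tags was 0.668% in Dox+ and 0.0281% in Dox-. In TPM, the copies scaled to the clean tags of a library without a length correction, the level was 4953 in Dox+ and 203 in Dox-. Ctla2a was thus the gene with the sixth highest copy number in Dox+, and rank 586 in Dox-. In the table, 0 genes were lower in Dox- by more TPM than Ctla2a, and 5 of the 6547 genes had a lower log2 ratio.

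**Figure D2:**
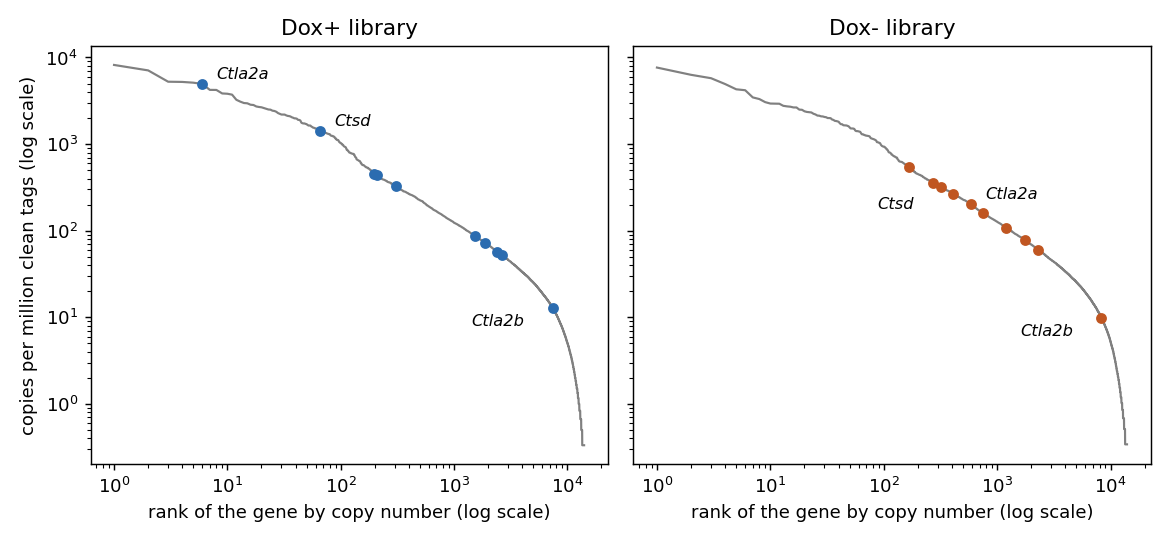
Level in TPM of every gene with a tag (grey line) against its rank by copy number, both on log axes, in the Dox+ (left) and Dox- (right) library, with the 10 genes as points. Ctla2a sits at rank 6 in Dox+ and at rank 586 in Dox-, while Ctla2b is at ranks 7425 and 8265.

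Ctla2b, the neighbouring paralog, was low in both libraries. It had 76 copies in Dox+ and 58 in Dox-, a log2 ratio of -0.36 with a 95% interval from -0.87 to 0.16. The interval includes no difference, and it lies far from the log2 ratio of Ctla2a, -4.61 (-4.70 to -4.53). For each Ctla2b tag there were 390 Ctla2a tags in Dox+ (95% interval 312 to 495) and 20.4 in Dox- (15.7 to 27.1). Divided by transcript length, these ratios were 326 and 17.1. At this copy number a level 1.5-fold lower in Dox- falls inside the interval, and one 1.5-fold higher falls outside it.

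The Ctla2 genes lie on the minus strand of chromosome 13 in NCBIM37, the assembly that UCSC calls mm9. Ctla2a spans 61035516 to 61037986 and Ctla2b 60996712 to 60998808, with a gap of 36.7 kb between them, and each has up to 5 exons in the GENCODE annotation. They sit beside a cluster of placental cathepsin genes. The cathepsin gene Ctsll3 (60899611 to 60904205) lies on the other side, beyond Ctla2b. Ctsl lies past the cluster, 3427 kb from Ctla2a (64464522 to 64471614, minus strand). Of 8 placental cathepsins, Cts8 had 0 copies in Dox+ and 25 in Dox-. The other 7 placental cathepsins had no row under their symbols in the table, so no values are given for them.

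The Ctla2 genes are close copies of each other, so the sequences bear on whether their tags can be told apart. Over the 342 aligned bases of the coding sequences, 329 were identical (96.2%). Of the 1353 windows of 21 bases in the Ctla2a transcript, 247 also occurred in Ctla2b, and 422 (31.2%) occurred in a transcript of some other protein-coding gene. Of the 1127 windows of the Ctla2b transcript, 235 (20.9%) occurred in another protein-coding gene, and the same number in Ctla2a. The enzyme that set the tag position is not given in the sources used here, and the study annotated unambiguous tags, those that match 1 gene. Whether the copy numbers hold such tags alone is not given either. For NlaIII, an enzyme in common use for tag profiling that cuts at CATG, 1 of the 6 tags of Ctla2a and 1 of the 7 of Ctla2b would be shared. The tags from the last CATG before the transcript end, shown here because they are what would separate the paralogs, occurred in no transcript of another protein-coding gene (the capitals mark the CATG site):
Ctla2a: CATGtctctagctgcatatct
Ctla2b: CATGatgtcttcaaattaaag
A tag from the shared stretches cannot be assigned to 1 of the pair, so the copy numbers of both are uncertain by an amount that was not tested.

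The paralogs also share most of the sequence before their starts, although their copy numbers differed. The 250 bases before each RefSeq start are shown for Ctla2a and Ctla2b because these neighbours had such different levels and ratios, with Ctsd for comparison. The sequences are from RefSeq promoter windows of GRCm38.p6, and each matched NCBIM37 exactly once, on the minus strand. Ctla2a is at chr13:61037987-61038236, Ctla2b at chr13:60998809-60999058 and Ctsd at chr7:149573733-149573982. The Ctla2 windows end just before the first base of the GENCODE gene models, but the RefSeq start of Ctsd lies inside its GENCODE model, so that 211 of the 250 bases of its window are in that gene. Capitals mark matches to the motifs named below.
Ctla2a: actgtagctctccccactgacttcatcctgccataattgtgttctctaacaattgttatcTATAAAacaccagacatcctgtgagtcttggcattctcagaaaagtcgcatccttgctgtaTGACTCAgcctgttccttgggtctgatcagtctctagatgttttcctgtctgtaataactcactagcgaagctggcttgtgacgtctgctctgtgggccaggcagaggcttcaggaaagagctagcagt
Ctla2b: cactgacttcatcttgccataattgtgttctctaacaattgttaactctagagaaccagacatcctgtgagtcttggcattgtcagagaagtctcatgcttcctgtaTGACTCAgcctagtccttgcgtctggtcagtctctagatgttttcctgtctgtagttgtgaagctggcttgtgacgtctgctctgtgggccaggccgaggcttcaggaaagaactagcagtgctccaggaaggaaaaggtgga
Ctsd: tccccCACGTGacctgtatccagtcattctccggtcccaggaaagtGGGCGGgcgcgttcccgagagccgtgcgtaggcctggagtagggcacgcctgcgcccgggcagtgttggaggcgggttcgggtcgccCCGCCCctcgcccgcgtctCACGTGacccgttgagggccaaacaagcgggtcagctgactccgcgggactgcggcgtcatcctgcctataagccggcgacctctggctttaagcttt

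The Ctla2a and Ctla2b windows aligned over 236 positions, of which 208 were identical (88.1%) and 8 were gaps. Both hold 1 copy of the AP-1 motif TGACTCA, which begins at position -129 from the start of Ctla2a and at -143 from that of Ctla2b. This motif occurred in 4.43% of 27025 promoter windows of the same length, 1 per gene, searched on both strands. Ctla2a alone of the pair held TATAAA, found in 12.97% of all windows. Neither window held the E-box CACGTG, the CRE motif TGACGTCA, the GC box GGGCGG or the palindromic steroid response element. The Ctsd window, which is placed differently against its gene model, held 2 E-boxes, 2 GC boxes and 27 CpG dinucleotides against 3 in each Ctla2 window, and its GC content was 67.2% against 46.8% for Ctla2a and 48.0% for Ctla2b. The E-box is also the core of the element bound by TFEB, a regulator of lysosomal genes. Promoter windows were at hand for 8 of the 10 genes, Ctsb and Ctsh being the exceptions. Of these 8, Ctsd and Ctsl held an E-box, against 6.05% of all windows, and 4 held a GC box, against 32.9%. A match describes these letters and is not a binding site.

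Ctsd encodes cathepsin D, the main aspartic endopeptidase of the lysosome (chromosome 7, 149557053 to 149573943, minus strand). It had 8497 copies in Dox+ and 1872 in Dox-, 4.43-fold lower in Dox- (95% interval 4.21 to 4.66). The TPM level was 1419 in Dox+ against 320 in Dox-, and its rank by copy number went from 66 to 318. Of the 6547 genes, 58 had a lower log2 ratio, and 6 genes of the table were lower in Dox- by more TPM. For each tag of the 7 cysteine cathepsins there were 0.953 Ctsd tags in Dox+ (0.925 to 0.982) and 0.204 in Dox- (0.194 to 0.215). Per kilobase of transcript these ratios were 0.913 and 0.201. GENCODE places another gene model, 6330512M04Rik, over 2606 bases of Ctsd on the same strand. In the search, 0 windows of 21 bases of the Ctsd transcript occurred in a transcript of another protein-coding gene. Only protein-coding transcripts were searched, so a model without one could not have matched. Whether tags of the overlapping model count towards Ctsd was not tested.

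The 7 cysteine cathepsins did not share the difference of Ctla2a or Ctsd. Together they had 8913 copies in Dox+ and 9160 in Dox-, 1.05-fold higher in Dox- (95% interval 1.02 to 1.08). For each of their tags there were 3.33 Ctla2a tags in Dox+ (3.25 to 3.41) and 0.129 in Dox- (0.122 to 0.137). Per kilobase of transcript the ratios were 4.94 and 0.197. Tags of the inhibitor gene thus outnumbered those of the cysteine cathepsins in Dox+ and were fewer in Dox-, on both scales. Against Ctsl alone, the cathepsin that CTLA-2α is known to inhibit, there were 15.2 Ctla2a tags per Ctsl tag in Dox+ (14.5 to 15.9) and 0.759 in Dox- (0.703 to 0.819). Per kilobase the Ctsl ratio in Dox- was 1.09, so that in this library the order of these genes depends on the scale. These are ratios of transcripts, and protein was not measured.

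**Figure D3:**
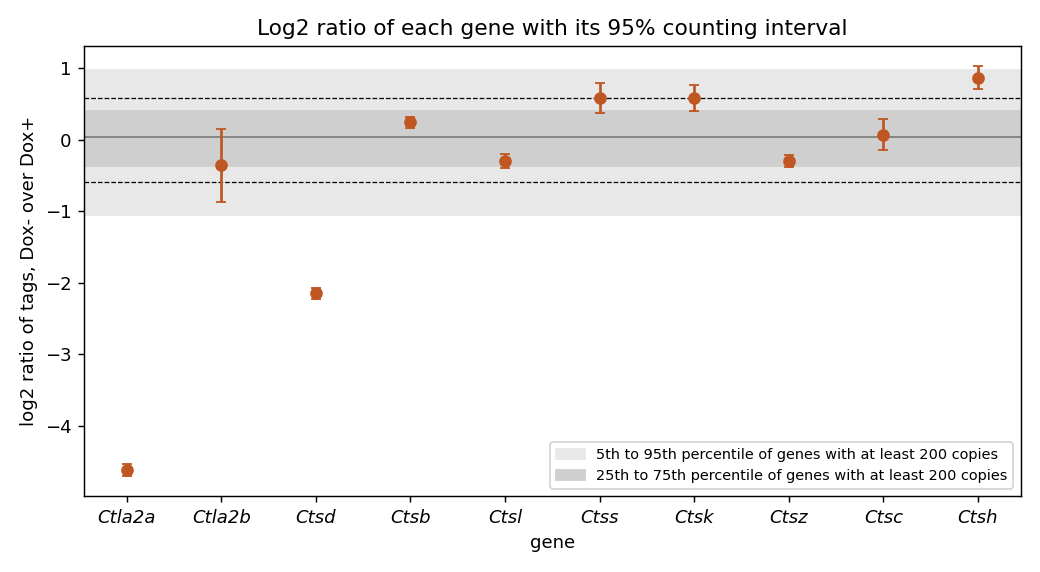
Log2 ratio of tags, Dox- over Dox+, of each gene with its 95% counting interval. The light and dark bands give the 5th to 95th and the 25th to 75th percentile of the 6547 genes with at least 200 combined copies, the grey line their median and the dashed lines a 1.5-fold difference. Ctla2a and Ctsd lie below the light band and the other 8 genes inside it.

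Among the cysteine endopeptidases, Ctsb and Ctsl had higher levels than Ctsk and Ctss in both libraries, per tag and per kilobase. Ctsb, which also acts as a dipeptidyl carboxypeptidase (chromosome 14, 63741302 to 63764758, plus strand), had 2719 copies in Dox+ and 3145 in Dox-, a log2 ratio of 0.24 (0.17 to 0.32). Ctsl had 1955 copies in Dox+ and 1560 in Dox-, a log2 ratio of -0.29 (-0.39 to -0.19). Both were under the 1.5-fold difference, and they differed in opposite directions beyond counting error. Fdft1 overlaps 769 bases of Ctsb on the opposite strand, and whether antisense tags are part of the copy numbers is not given in the sources used here.

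Ctsk and Ctss are neighbours on the plus strand of chromosome 3, at 95303208 to 95313284 and 95330708 to 95360325, with 17.4 kb between them. Cathepsin K degrades collagen, and cathepsin S trims the invariant chain of class II molecules in antigen-presenting cells. Ctsk had 433 copies in Dox+ and 635 in Dox-, 1.502-fold higher in Dox- (1.33 to 1.70). Ctss had 313 copies in Dox+ and 459 in Dox-, also 1.502-fold higher (1.30 to 1.74). Both genes stood at the 1.5-fold line itself. With TMM scaling their fold changes were 1.48 and 1.48, under the line, so that 1 gene instead of 3 was past 1.5-fold in that direction. GENCODE places another gene model, Hmgb1-ps5, over 557 bases of Ctss on the same strand. Whether tags of that model count towards Ctss was not tested.

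The exopeptidases differed from one another. Ctsh, an aminopeptidase (chromosome 9, 89948990 to 89970927, plus strand), had 522 copies in Dox+ and 930 in Dox-, 1.82-fold higher in Dox- (1.64 to 2.04). It was the gene with the highest ratio of the 10, and 450 of the 6547 genes had a higher one. Ctsz, a carboxypeptidase (chromosome 2, 174252994 to 174264540, minus strand), had 2628 copies in Dox+ and 2079 in Dox-, a log2 ratio of -0.30 (-0.39 to -0.22). Ctsc, the dipeptidyl peptidase that activates the serine proteases of cytotoxic and mast cell granules (chromosome 7, 95426595 to 95459398, plus strand), had 343 copies in Dox+ and 352 in Dox-. Its log2 ratio was 0.07 (-0.15 to 0.29), an interval that includes no difference. Gm17710 overlaps 4743 bases of Ctsc on the opposite strand, where the same uncertainty about antisense tags holds.

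**Figure D4:**
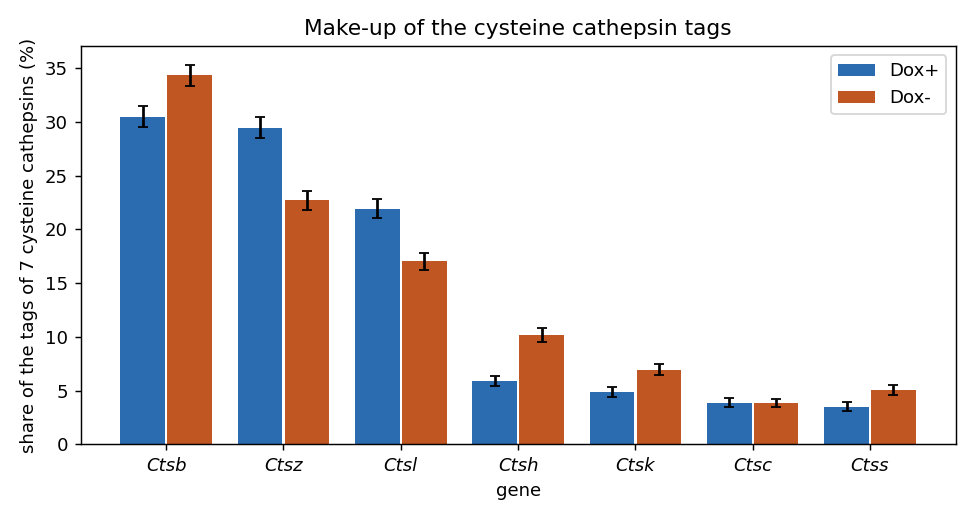
Share of each gene in the tags of the 7 cysteine cathepsins in the Dox+ (blue) and Dox- (orange) library, in percent, with exact Clopper-Pearson 95% intervals. Ctsz and Ctsl have smaller shares in Dox- and Ctsb, Ctsh, Ctsk and Ctss larger ones.

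The summed tags of the cysteine cathepsins were thus nearly level while their make-up shifted. Ctsz held 29.5% of them in Dox+ (95% interval 28.5 to 30.4) and 22.7% in Dox- (21.8 to 23.6), and Ctsl 21.9% and 17.0%. Ctsb held 30.5% in Dox+ (29.6 to 31.5) and 34.3% in Dox- (33.4 to 35.3). The share of Ctsh was 5.86% in Dox+ (5.38 to 6.36) and 10.2% in Dox- (9.54 to 10.8). Ctsc kept the same share, 3.85% and 3.84%. Per kilobase of the longest transcript, the order of levels in Dox+ was Ctla2a with 3607 TPM per kilobase, Ctsd with 667, Ctsz with 305, Ctsl with 166, Ctsb with 95.9, Ctsh with 53.9, Ctsk with 48.8, Ctss with 38.6, Ctsc with 23.0 and Ctla2b with 11.1. In Dox- Ctsz stood first with 247 TPM per kilobase, followed by Ctsd with 151 and Ctla2a with 148. The counting intervals of Ctsd and Ctla2a in Dox- overlap on that scale, so their order is not settled. By copies, without the length division, Ctsb stood first in Dox- with 3145. Ctsz followed with 2079, Ctsd with 1872, Ctsl with 1560 and Ctla2a with 1184. In Dox+ Ctsb had 2719 copies and Ctsz 2628, with overlapping intervals, so these orders depend on the scale.

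Of the other inhibitors, cystatins and stefins, 4 of 14 listed genes were in the table and 2 had enough copies. Cst3, the secreted inhibitor cystatin C, had 3295 copies in Dox+ and 2933 in Dox-, a log2 ratio of -0.13. Cstb, the cytosolic stefin B, had 1174 copies in Dox+ and 629 in Dox-, 1.82-fold lower in Dox- (95% fold interval, Dox- over Dox+, 0.497 to 0.605). Cst7 had 5 and 13 copies, and Cst6 had 2 and 0. The list had 0 genes past 1.5-fold higher and 1 lower, beside 15.2% and 14.7% of all genes.

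Of the other lysosomal cathepsins, Ctsa stood at the 1.5-fold line. Ctsa, a serine carboxypeptidase that also protects lysosomal glycosidases, had 758 copies in Dox+ and 494 in Dox-, 1.498-fold lower in Dox- and 1.52-fold lower with TMM scaling. Ctso had 121 and 141 copies, and Ctsf had 91 and 51. Ctsa and Ctso were the 2 of 5 genes in the table with enough copies, and their median log2 ratio was -0.16.

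Genes that sort and activate cathepsins went in both directions. Of 9 listed genes, 8 had enough copies, with a median log2 ratio of 0.13, 1 gene past 1.5-fold higher and 1 lower, beside 15.2% and 14.7% of all genes. Sort1, which encodes the sorting receptor sortilin, had 481 copies in Dox+ and 244 in Dox-, 1.92-fold lower in Dox-. Scarb2, the sorting receptor of glucocerebrosidase, had 104 and 161 copies, 1.59-fold higher in Dox-. Psap, the saposin precursor, had 1498 and 1732 copies, and M6pr, a mannose 6-phosphate receptor, 380 and 421. Gnptab, a subunit of the enzyme that makes the mannose 6-phosphate tag, had 126 and 168 copies. Lgmn, the asparaginyl protease that processes cathepsin proenzymes, had 247 and 245 copies. Among the listed genes of the lysosomal membrane and its regulators, 5 had enough copies, with a median log2 ratio of -0.46, 1 past 1.5-fold lower and 0 past 1.5-fold higher, beside the same shares of all genes. Cd63 had 5597 copies in Dox+ and 5969 in Dox-, Lamp2 2152 and 1795, Lamp1 1182 and 770, Npc2 750 and 531 and Npc1 470 and 282. Npc1 was 1.63-fold lower in Dox-, and Lamp1 was 1.499-fold lower, or 1.52-fold with TMM scaling.

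**Figure D5:**
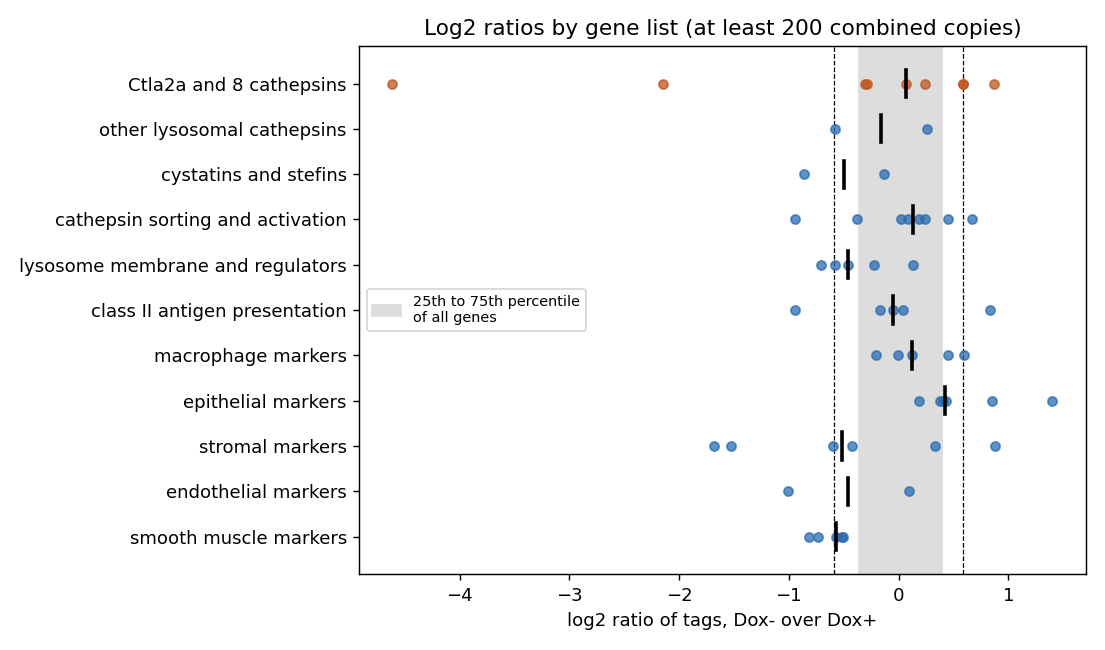
Log2 ratio of tags, Dox- over Dox+, of each gene with at least 200 combined copies, by list (points), with the median of each list (black bar). The grey band is the 25th to 75th percentile of the 6547 genes and the dashed lines mark a 1.5-fold difference. Ctla2a and Ctsd lie below every other point plotted, and the epithelial medians lie to the right of the stromal, endothelial and smooth muscle ones.

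Markers of the cells of the uterus differed between the libraries, and their part in the values above was not tested. The 7 epithelial markers had a summed TPM of 942 in Dox+ against 1439 in Dox-, 1.53-fold higher in Dox- (1.48 to 1.58), with 2 of 6 genes with enough copies past 1.5-fold higher and 0 lower, beside 15.2% and 14.7% of all genes. Of them, Krt19 had 1554 and 2046 copies, Krt8 1330 and 1481, Cldn7 877 and 2263 and Epcam 467 and 821. The 6 stromal markers summed to 1903 and 1368 TPM, with 3 of 6 past 1.5-fold lower and 1 higher, against the same shares of all genes. They went in both directions, as Hoxa10 had 3120 and 1060 copies, Hoxa11 2573 and 785 and Vim 2612 and 1680, while Lum had 1549 and 2779. The 5 smooth muscle markers summed to 4307 and 2818 TPM, with 2 of 5 past 1.5-fold lower and 0 higher, beside the same shares. These were Des, with 4647 and 2578 copies, and Cnn1, with 4866 and 2851. Actg2 had 7436 and 5086 copies, Myh11 4609 and 3169 and Acta2 4225 and 2786, and Acta2 was 1.48-fold lower, or 1.51-fold with TMM scaling. The 5 endothelial markers summed to 149 and 103 TPM, with 1 of 2 past 1.5-fold lower and 0 higher, again beside the same shares. They were split, as Cdh5 had 446 and 216 copies, 2.02-fold lower in Dox-, and Pecam1 had 243 and 253, while Emcn had 108 and 64.

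Among immune cells, the 9 macrophage markers in the table had a summed TPM of 292 in Dox+ against 322 in Dox-, a log2 ratio of 0.14. Of 5 with enough copies, 1 was past 1.5-fold higher and 0 lower, beside 15.2% and 14.7% of all genes. This was Mrc1, with 163 and 241 copies, 1.51-fold higher in Dox- or 1.49-fold with TMM scaling. C1qb had 755 and 804 copies and C1qa 396 and 336. Lyz2 had 127 and 169 copies, 1.36-fold higher in Dox- (1.08 to 1.73), and Csf1r had 186 and 181, a ratio of 0.997 (0.808 to 1.23). Below 200 combined copies, Emr1 had 70 and 102, Cd14 30 and 31, Cd163 18 and 8 and Cd68 5 and 8. The part of macrophages in the differences of Ctss, Ctsk and Ctsh was not tested. The 10 lymphocyte and NK cell markers summed to 24.2 and 17.6 TPM. Prf1 had 0 copies in Dox+ and 2 in Dox-, and Cd2 had 13 and 0. Gzmb had 32 and 8 copies, Ncr1 37 and 18 and Cd3g 22 and 34. Of 8 markers of mast cells and neutrophils in the table none reached 200 combined copies, and they did not go in 1 direction. The groups given here were split after their values were seen. The mast cell proteases Cpa3, Mcpt4, Tpsb2 and Cma1 had 287 copies together in Dox+ and 22 in Dox-, 12.7-fold lower in Dox- (8.25 to 20.6), and Mcpt4 had 0 copies in Dox-. The neutrophil genes S100a8, S100a9 and Mpo had 42 and 216 copies together, 5.27-fold higher in Dox- (3.77 to 7.52). Kit, which mast cells also express, had 22 and 20 copies, a ratio of 0.931 (0.482 to 1.79). Summed, the 4 proteases reached a level of 47.9 TPM with doxycycline and 3.76 without, and their part in the difference of Ctla2a was not tested.

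The genes whose log2 ratio was nearest to that of Ctla2a, over these 2 libraries and among genes with at least 200 combined copies, were Lef1, Jam2, Ndp, Maob and Ihh, within 0.10 to 0.52 of it. Jam2, a junction protein, had 1007 copies in Dox+ and 32 in Dox-. Ihh, the hedgehog ligand of the uterine epithelium, had 646 and 37 copies, and Lef1, a transcription factor of the WNT pathway, had 210 and 9. The genes nearest to Ctla2b, Pygo2, Limd2, Pih1d1, Kdm6b and Stat5a, were all within 0.001 of its log2 ratio of -0.36. That value is at the lower edge of the 25th to 75th percentile of all genes (-0.36 to 0.40). This closeness follows from picking the nearest of 6547 genes, and the interval of Ctla2b, -0.87 to 0.16, is far wider.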

How the data were processed

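The deposited counts are copy numbers of tags per gene, not normalized. The authors discarded low quality, adaptor-only and single-copy tags, aligned the clean tags that remained to mouse mRNAs of mm9 and annotated the unambiguous ones (aligner not given in the sources used here). Whether the deposited copy numbers hold sense and unambiguous tags alone is not given either. The deposited TPM values are copies scaled by the authors to the clean tags of each library, without a length correction, and served here to recover the clean tags of each library. All 14050 and 13948 TPM values of genes with a tag fitted these totals within 0.005. The labels mention fragmentation, the paper tag profiling, so levels between genes were given both per tag and per kilobase of the longest GENCODE transcript. Deposited ratios, P-values and FDR were the authors' comparisons and were not used.

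Folds of copies per clean tag were computed with exact Clopper-Pearson intervals at 95%, without pseudocount. With 1 library per condition no test was made, and the Audic-Claverie test of the study was not used. A gene was called at 200 or more copies over both libraries and a fold change of at least 1.5. Alternatives were other filters and thresholds, other scalings (TMM of edgeR) and a pseudocount. The genes and lists were chosen with earlier results of these data known. The text names the 10 genes, Vegfa, the 5 genes nearest in log2 ratio to each Ctla2 gene and, of each list, the 3 genes with the most copies and the 3 with the largest fold. Other genes named, the split of mast cell from neutrophil genes included, were chosen after their values were seen. The intervals and calls were tested on simulated data that held counting error alone, so variation between uteri or libraries was not part of that test. Python 3.11.15, numpy 2.4.6, scipy 1.17.1, pandas 2.3.3, Biopython 1.88, R 4.3.3 and edgeR 4.0.16 were used.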

Additional observations from a re-analysis of the deposited data

How the results depend on the processing

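The log2 ratios of the 10 genes kept their values within the counting interval under each other scaling and with a pseudocount of 1. At a fold change of at least 2, 0 genes were past the threshold in the higher direction, against 3 at 1.5, and 1 was with TMM scaling, with median-ratio scaling, or when the whole interval had to be past 1.5 (chosen after seeing the data). In the lower direction 2 genes passed under every setting. Of all genes, 14.1% were higher and 15.6% lower with TMM scaling, and 13.8% and 15.9% with median-ratio scaling. At the 2-fold and whole-interval settings the shares of all genes were not computed. Nothing is read from these counts of the 10 genes. Of all listed genes with enough copies 6 were higher and 10 lower, beside 15.2% and 14.7% of all genes. These counts were 1 and 3 at 2-fold and 14 and 21 from 20 combined copies. The shares of all genes were not computed at those settings, so nothing is read from the counts there. With TMM scaling the counts of listed genes were 5 and 13, beside 14.1% and 15.6% of all genes. There Ctsa, Lamp1 and Acta2 passed 1.5-fold lower and Mrc1 no longer passed. Without Ctsb the summed cysteine cathepsins had a log2 ratio of -0.00777, against 0.07, and without Ctla2a the Ctla2 sum is that of Ctla2b, -0.36, against -4.55. Ctla2 tags per cysteine cathepsin tag, 3.33 in Dox+ and 0.136 in Dox-, were 4.95 and 0.208 per kilobase, and 0.0123 and 0.00964 without Ctla2a and Ctsb. No paired analysis was possible because each condition has 1 library. No replicate could be left out, for the same reason, and the intervals hold counting error only, so variation between uteri is not included.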

Other observations

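Genes of class II antigen presentation, the route in which cathepsins S and L trim the invariant chain, went different ways. Cd74, the invariant chain itself, had 2742 copies in Dox+ and 4761 in Dox-, 1.78-fold higher in Dox- (1.70 to 1.86). H2-Aa had 2164 and 1884 copies, H2-Ab1 1428 and 1347 and H2-Eb1 781 and 782, all under 1.5-fold. H2-DMa, a chain of the peptide exchange factor, had 222 and 113 copies, 1.92-fold lower in Dox-. Of 5 listed genes with enough copies, 1 was past 1.5-fold in each direction, beside 15.2% higher and 14.7% lower among all genes, and the median log2 ratio was -0.05.

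Ctse, the aspartic cathepsin E of epithelia and antigen-presenting cells, had 4 copies in Dox+ and 41 in Dox-, a ratio of 10.5 (3.80 to 40.4), opposite in direction to the aspartic Ctsd. Ctsw, known from NK cells and cytotoxic T lymphocytes, had 17 and 22 copies.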
